A study of Mus musculus with 6 samples.

Results

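Eph receptors and ephrins were examined in lenses of 3-month-old mice, in a set of 10 genes: the receptors Epha2, Epha3, Epha4, Ephb2 and Ephb4 and the ligands Efna1, Efna3, Efna5, Efnb1 and Efnb2. The members were all array probes whose RefSeq accession belongs to one of these genes, which gave 13 of the 39429 different probes on the array and 10 of the 20659 named genes. The knock-in mice carried a CRISPR/Cas9-made substitution of tryptophan by cysteine at codon 151 (W151C) of βB2-crystallin, an abundant structural protein of the lens, and the others were wild type. The knock-in group had 3 arrays, numbered 1, 2 and 4 in their titles, and the wild type group had 3, numbered 1, 2 and 3. Each array held total lens RNA labelled with the dye Cy3, and the labels do not say how many animals contributed to it, nor whether the knock-in mice carried the change on one or both alleles. P-values therefore rest on the spread among arrays only, and that spread may be technical.

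Eph receptors are receptor tyrosine kinases, and their ephrin ligands are held in the membrane of neighbouring cells, ephrin-As by a lipid anchor and ephrin-Bs by a transmembrane segment. Contact sends a forward signal into the receptor-bearing cell and a reverse signal into the ephrin-bearing cell, and both act on adhesion and the actin cytoskeleton. In the lens, EphA2 and ephrin-A5 are needed for ordered cell packing and clarity: human EPHA2 mutations cause cataract, and mice without Efna5 can develop cataract.

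The promoters of Epha2 and Efna5, the pair best known in the lens, and of Efnb2, the member measured by 2 kept probes, are shown as the 250 bases upstream of the annotated start (RefSeq, GRCm38.p6, 5′ to 3′ on the gene's strand). Capitals mark every match, on either strand, to the GC box letters GGGCGG, the CCAAT motif, the TATA box letters TATAAA or the AP-1 letters TGANTCA.
Epha2, chr4:141300971-141301220, plus strand: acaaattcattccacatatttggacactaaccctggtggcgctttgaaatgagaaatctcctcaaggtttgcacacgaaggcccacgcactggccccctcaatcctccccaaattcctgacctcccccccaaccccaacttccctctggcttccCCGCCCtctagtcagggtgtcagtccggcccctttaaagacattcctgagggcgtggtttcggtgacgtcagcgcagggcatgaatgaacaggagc
Efna5, chr17:62881318-62881567, minus strand: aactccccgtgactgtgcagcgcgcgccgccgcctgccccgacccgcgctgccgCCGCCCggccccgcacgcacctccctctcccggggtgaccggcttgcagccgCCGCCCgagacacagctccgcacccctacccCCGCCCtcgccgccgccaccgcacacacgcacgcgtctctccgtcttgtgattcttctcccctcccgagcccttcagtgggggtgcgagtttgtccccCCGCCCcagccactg
Efnb2, chr8:8661243-8661492, minus strand: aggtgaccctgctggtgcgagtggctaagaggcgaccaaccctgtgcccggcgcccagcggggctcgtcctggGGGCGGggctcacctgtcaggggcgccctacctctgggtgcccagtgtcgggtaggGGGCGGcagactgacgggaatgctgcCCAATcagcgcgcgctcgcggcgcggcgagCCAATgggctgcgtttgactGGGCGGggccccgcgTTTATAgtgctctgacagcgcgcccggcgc
Epha2 had 1 GC box match, Efna5 had 4 and Efnb2 had 3, and a GC box match occurred in 32.7% of 32851 annotated mouse promoters over the same window. Efnb2 also held 2 CCAAT matches (33.8% of promoters held at least 1) and a TATA match on the strand opposite to the gene, starting 30 bases before the start (12.4% of promoters). AP-1 matches, found in 6.75% of promoters, were absent from all 3 windows. The windows of Efna5 and Efnb2 were rich in CpG, with 32 and 27 CG dinucleotides and a GC content of 74.8% and 72%, against 9 and 55.6% in Epha2 and medians of 6 and 52.4% over all promoters. A match describes these letters and does not show a site in use.

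Signals are given as the log2 processed signal minus the 75th percentile of the same array, so that 0 is the level of the 75th percentile and a difference of 1 is 2-fold. That percentile lay between 167 and 201 on the knock-in arrays and between 120 and 698 on the wild type arrays, and 45.5% to 58.4% of spots were well above background. The knock-in arrays were read in a single scan, wild type arrays 1 and 2 in a second scan of that day, and wild type array 3 on another day, so scan and genotype cannot be told apart, and values from the shared day (all knock-in arrays against wild type 1 and 2) are given beside the main ones for the members. All 13 lens fibre markers named on the array and all 10 lens epithelial markers were measured. Knock-in array 4 stood apart in retinal transcripts. Among 11 probes of 10 retinal genes, 9 were highest on knock-in array 4, so results without that array are given where they differ. The part of retinal RNA in the results below was not tested.

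No Eph receptor or ephrin gene of the set passed the test between knock-in and wild type lenses by its brightest probe. By the brightest kept probe, 0 of 8 measured genes passed the test (limma, adjusted p under 0.05 over 21076 probes), while 24.2% of 12785 genes passed. At an unadjusted p under 0.05 the count was 3 of 8, against 38.7% of genes. Over all kept probes of the set 1 of 9 passed, a second and dimmer Efnb2 probe kept through its wild type signal, where 23.6% of all probes passed. The differences of the 8 genes ran from -0.90 to 0.54 with a median of -0.27, and the median over all genes was -0.04. In bulk lens RNA, fewer cells of a type and less RNA per cell cannot be told apart.

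**Figure D1:**
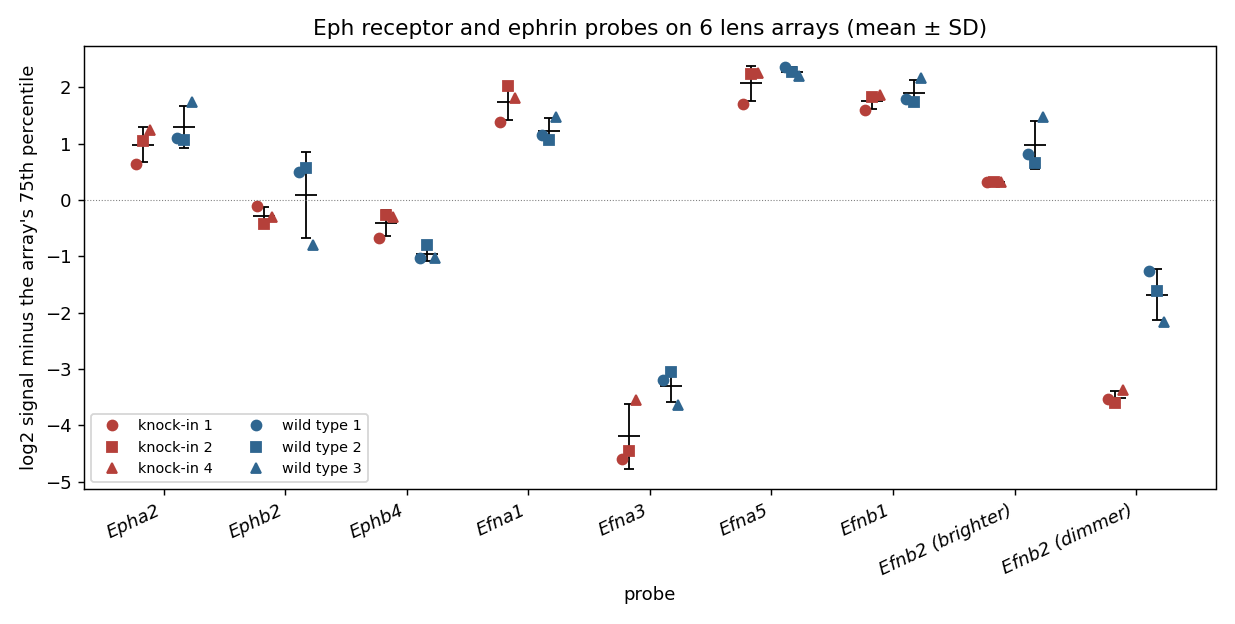
Log2 signal of the 9 kept Eph receptor and ephrin probes relative to the array's 75th percentile (y axis), with knock-in arrays in red to the left of wild type arrays in blue, and the mean ± SD of 3 arrays in black. Knock-in and wild type points overlap for most probes and are apart for Ephb4 and both Efnb2 probes.

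Of the 13 probes, 7 were well above background on all 6 arrays, those of Epha2, Ephb2, Ephb4, Efna1, Efna5, Efnb1 and Efnb2. The main Efna3 probe and the dimmer Efnb2 probe passed the filter through the wild type arrays alone, so a difference was built into their selection and their values are a description. The remaining 4 probes, the sole probes of Epha3 and Epha4 and a second probe each of Ephb4 and Efna3, were not well above background on any array, and their scaled values lay between -5.63 and -4.54 on knock-in arrays and between -6.72 and -5.56 on wild type arrays. Epha3, a high-affinity receptor for ephrin-A5, and Epha4, which binds ephrins of both classes, therefore have no measured level here.

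Among the receptors, Epha2, a receptor for ephrin-As, had values of 0.64, 1.05 and 1.25 on knock-in arrays 1, 2 and 4, compared with 1.09, 1.07 and 1.73 on wild type arrays 1, 2 and 3. The 2 groups overlapped, with knock-in 1 lowest and wild type 3 highest. The mean was 0.98 ± 0.31 for knock-in lenses and 1.30 ± 0.38 for wild type lenses (SD, n = 3 each), a difference of -0.32 (SE 0.26, limma adjusted p = 0.395). Its 95% interval in this fit, -0.93 to 0.28, did not reach a 2-fold difference in either direction. With scan as a random block the interval was -1.34 to 0.56 and did reach a 2-fold fall. Within the shared day the difference was -0.10 (limma adjusted p = 0.706).

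Ephb2, a receptor for ephrin-Bs that also binds ephrin-A5, had values of -0.12, -0.43 and -0.31 on the knock-in arrays, against 0.49, 0.56 and -0.80 on wild type arrays 1, 2 and 3. Wild type array 3 lay below every knock-in array and the other wild type arrays lay above them all. The difference of -0.37 (SE 0.37, limma adjusted p = 0.494; interval -1.24 to 0.50) did not pass, and in the shared day it was -0.81 (limma adjusted p = 0.00749), the same without wild type 3 (limma adjusted p = 0.008).

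Ephb4, the receptor of ephrin-B2 known from veins, had values of -0.67, -0.27 and -0.30 on the knock-in arrays, against -1.04, -0.80 and -1.03 on the wild type arrays. Every knock-in array lay above every wild type array, as 1 of 2 member genes whose groups did not overlap by the brightest probe (45.9% of all genes had no overlap). The mean was -0.41 ± 0.22 for knock-in lenses and -0.96 ± 0.14 for wild type lenses (SD, n = 3 each), and the difference of 0.54 (SE 0.18, limma adjusted p = 0.0723; interval 0.11 to 0.98) did not pass. Leaving out knock-in array 1 gave 0.67 (limma adjusted p = 0.0483), and in the shared day the difference was 0.51 (limma adjusted p = 0.0642).

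Among the ephrin-As, Efna5 had values of 1.71, 2.23 and 2.26 on knock-in arrays 1, 2 and 4, compared with 2.37, 2.27 and 2.20 on wild type arrays 1, 2 and 3. Knock-in array 1 was the low value and the other 5 arrays lay close together. The mean was 2.07 ± 0.31 for knock-in lenses and 2.28 ± 0.09 for wild type lenses (SD, n = 3 each). The difference was -0.21 (SE 0.20, limma adjusted p = 0.472), with an interval of -0.69 to 0.26 that did not reach a 2-fold difference either way. With scan as a random block the interval was -1.04 to 0.65 and did reach a 2-fold fall. Without knock-in array 1 the difference was -0.03 (limma adjusted p = 0.897), and in the shared day it was -0.25 (limma adjusted p = 0.352).

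Efna1, an ephrin-A ligand of EphA2 first found as a gene induced by tumour necrosis factor, had values of 1.39, 2.02 and 1.81 on the knock-in arrays, against 1.15, 1.06 and 1.47 on the wild type arrays. The groups overlapped only through knock-in 1, which lay below wild type 3. The difference of 0.51 (SE 0.22, limma adjusted p = 0.134; interval -0.01 to 1.04) did not pass, and in the shared day it was 0.64 (limma adjusted p = 0.0497), against an adjusted p of 0.0516 from limma without wild type 3. Efna3, another lipid-anchored ligand, read -4.60, -4.46 and -3.54 on the knock-in arrays, none of them well above background, against -3.19, -3.06 and -3.63 on the wild type arrays, all above it. Its wild type signal lay at about the lowest level that counts as above background on the knock-in arrays, so no fold is given. The fitted difference was -0.90 with all arrays (limma adjusted p = 0.078) and -1.07 in the shared day (limma adjusted p = 0.0376). It was -1.23 without knock-in array 4 (limma adjusted p = 0.0253) and 0.0078 with normexp background correction. None of these is a measured change.

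Among the ephrin-Bs, Efnb1, an X-linked gene mutated in human craniofrontonasal syndrome, had values of 1.59, 1.83 and 1.86 on the knock-in arrays, against 1.80, 1.74 and 2.16 on the wild type arrays. The groups overlapped, and the difference of -0.14 (SE 0.19, limma adjusted p = 0.623; interval -0.58 to 0.30) was smaller than the spread within wild type. In the shared day it was -0.0066 (limma adjusted p = 0.975).

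Efnb2, a transmembrane ligand of EphB4 known from arteries, averaged lower on the knock-in arrays at both of its probes, and the size differed between the probes. The brighter probe read 0.31, 0.32 and 0.33 on knock-in arrays 1, 2 and 4, compared with 0.81, 0.65 and 1.47 on wild type arrays 1, 2 and 3. The knock-in arrays lay together below all wild type arrays, and wild type 3 was the high value. The mean of this probe was 0.32 ± 0.0083 for knock-in lenses and 0.98 ± 0.43 for wild type lenses (SD, n = 3 each), and the difference of -0.66 (SE 0.24, interval -1.22 to -0.10) did not pass (limma adjusted p = 0.0863). Without wild type 3 it was -0.41 (limma adjusted p = 0.0489), and in the shared day -0.41 (limma adjusted p = 0.0475), a smaller difference with a smaller spread.

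The dimmer Efnb2 probe read -3.54, -3.60 and -3.38 on the knock-in arrays, against -1.27, -1.63 and -2.16 on the wild type arrays. It was well above background on all wild type arrays and, of the knock-in arrays, on number 4 alone. The fitted difference was -1.82 (SE 0.25, limma adjusted p = 0.00364), and since the probe was kept through wild type and read against background in knock-in lenses, neither its size nor its p supports a fall of Efnb2. It was -2.06 in the shared day (limma adjusted p = 0.000603), -1.75 with scan as a random block (limma adjusted p = 0.0521) and -0.28 with normexp background correction (limma adjusted p = 0.615).

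**Figure D2:**
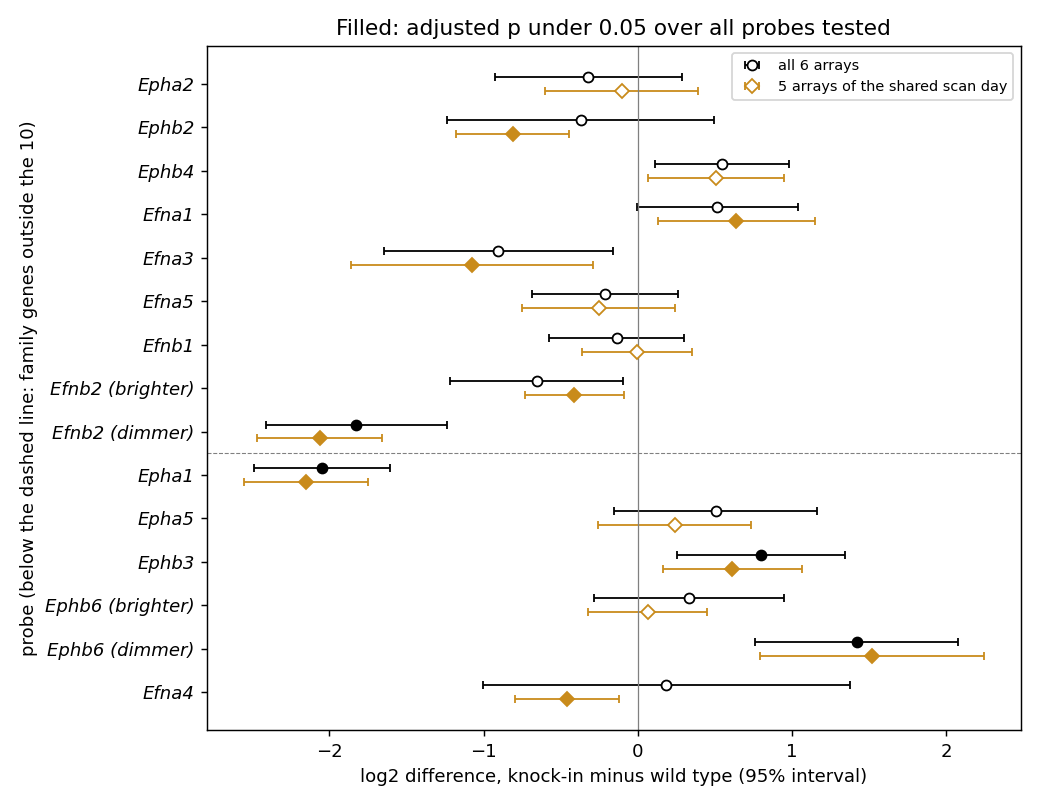
Log2 difference, knock-in minus wild type, with its 95% interval (x axis) for each kept Eph and ephrin probe, from all 6 arrays (black) and from the 5 arrays of the shared scan day (ochre); filled symbols have an adjusted p under 0.05. Only the dimmer Efnb2 probe is filled in black among the members. Epha1 has the largest difference in both fits, -2.05 with all 6 arrays and -2.15 in the shared day. Both the Epha1 probe and the dimmer Efnb2 probe were kept through their wild type signal.

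Vascular markers were read beside Ephb4 and Efnb2, which endothelial cells also express. Of 12 endothelial markers 5 were measured, with 1 higher and 0 lower past the test (12.4% and 11.8% of all genes were) and a median of -0.41. The 1 higher was Flt1, a receptor of vascular growth factors, which was well above background on all knock-in arrays and on 1 wild type array and so was kept through the knock-in arrays. In the shared day 1 of the 5 was higher and 2 were lower, where 42.7% of all genes passed. The summed level of the 5 was 2.91 to 3.21 on knock-in arrays and 3.28 to 4.70 on wild type arrays, in multiples of the array's 75th percentile. Cdh5, Tek, Tie1, Emcn, Esam, Robo4 and Cldn5, which include defining endothelial genes, were near background throughout, with no array well above it.

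Single arrays bore on many members at once. Knock-in array 1, which had the fewest spots above background, was the lowest knock-in array for 7 of the 8 genes, below the mean of the other knock-in arrays with a median gap of 0.45 (log2). For Efnb2 the knock-in arrays differed little, at 0.31, 0.32 and 0.33. The share of all genes lowest on that array is not given here, so the count is not a result about the members. In the shared day 4 of 8 genes passed, Efna1 higher and Ephb2, Efnb2 and the dim Efna3 lower, where 42.7% of all genes passed, so the members' share was near the background. With scan as a random block 0 of 8 passed, and 3.86% of all genes did.

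**Figure D3:**
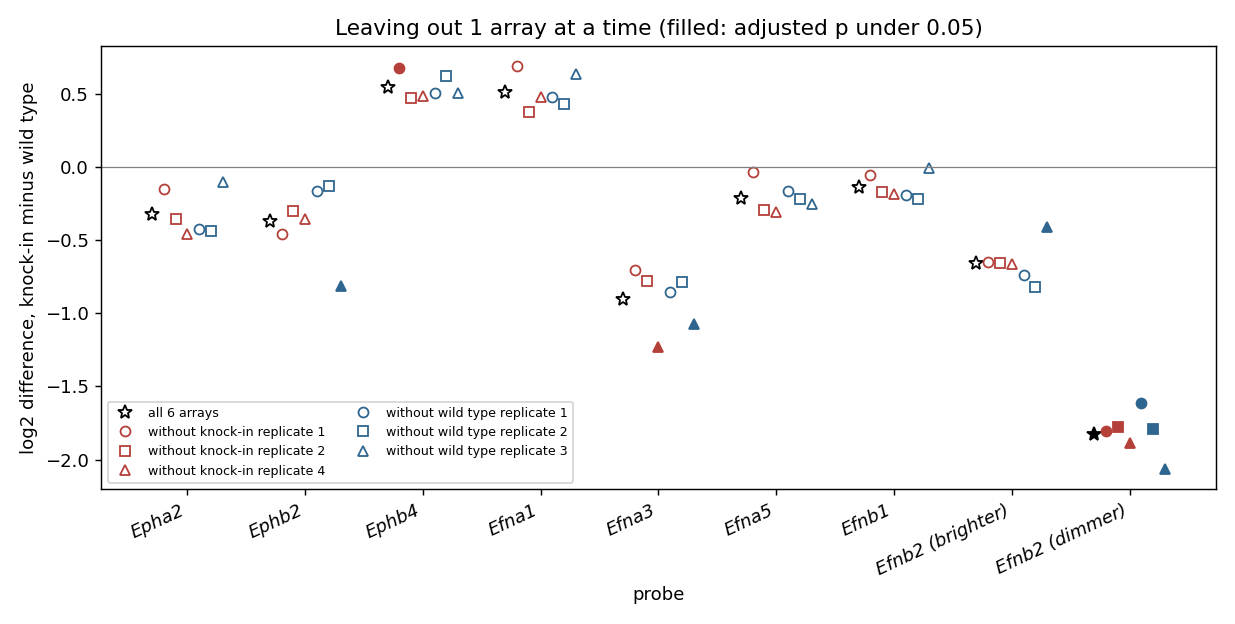
Log2 difference, knock-in minus wild type (y axis), for each kept member probe with all 6 arrays (star) and without each array in turn (red without a knock-in array, blue without a wild type array); filled symbols have an adjusted p under 0.05. Ephb2 moves most, to -0.81 without wild type 3, and the dimmer Efnb2 probe ranges from -2.06 to -1.61.

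The other 12 Eph and ephrin genes had 16 probes, of which 6 probes of 5 genes were kept, and 2 of these 5 genes passed the test, 1 higher and 1 lower (12.4% of all genes were higher and 11.8% lower). Epha1, an ephrin-A receptor of epithelia, read -2.49, -2.09 and -2.39 on the knock-in arrays, against -0.15, -0.19 and -0.48 on the wild type arrays. All knock-in arrays lay far below all wild type arrays, and 2 of the 3 were well above background, so the probe was kept through wild type. A difference was thus built into its selection, and its size and p are a description. Epha1 differed by -2.05 (SE 0.19, limma adjusted p = 0.00084), by -2.15 in the shared day (limma adjusted p = 0.000541), and by -2.01 with scan as a random block (limma adjusted p = 0.02), but by -0.88 with normexp background correction (limma adjusted p = 0.022).

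Ephb3, a receptor for ephrin-Bs, read 4.33, 4.82 and 4.73 on the knock-in arrays, against 3.95, 4.08 and 3.45 on the wild type arrays. The groups did not overlap, and Ephb3 rose by 0.80 (SE 0.23, limma adjusted p = 0.0461). This call was lost on leaving out any array other than wild type 3 (limma adjusted p from 0.0512 to 0.165) and with scan as a random block (limma adjusted p = 0.275), and the shared day gave 0.61 (limma adjusted p = 0.0391). Ephb6, a receptor whose kinase is inactive, had 2 kept probes: the brighter differed by 0.33 (limma adjusted p = 0.387) and the dimmer, kept through the knock-in arrays with 1 wild type array well above background, differed by 1.42 (limma adjusted p = 0.0132; 0.0502 without wild type 1 and 0.206 with scan as a random block) and by 0.49 with normexp background correction (limma adjusted p = 0.464). Epha5, an ephrin-A receptor known from neurons, and Efna4, a lipid-anchored ligand, differed by 0.50 and 0.19 and did not pass. Efna4 read -0.42, -0.44 and -0.25 on the knock-in arrays, against 0.12, 0.06 and -1.85 on the wild type arrays, and in the shared day, without wild type 3, its difference turned to -0.46 (limma adjusted p = 0.0372). Epha6, Epha7, Epha8 and Epha10 were not well above background on any array.

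Genes that carry Eph forward signals, from the receptor to kinases, adaptors and small GTPases, were measured for 37 of 44, with 3 higher, 4 lower and a median of 0.07, beside 12.4% higher and 11.8% lower of all genes. In the shared day 7 were higher and 6 lower, where 42.7% of all genes passed. Ngef, the exchange factor ephexin-1 that binds EphA receptors, read 0.64, 1.23 and 1.95 on the knock-in arrays, against 4.92, 4.96 and 4.79 on the wild type arrays. The groups were far apart, and Ngef fell by 3.62 (SE 0.32, limma adjusted p = 0.000737; adjusted p = 0.0232 with scan as a random block). Sipa1l1, a GTPase-activating protein for Rap, fell by 1.29 (SE 0.20, limma adjusted p = 0.00569, and 0.1 with scan as a random block). Smaller falls were those of Abl2, a tyrosine kinase of the Abl family, by 0.66 and of the GTPase Rac1 by 0.61, and the rises were Limk2, a kinase that phosphorylates cofilin, at 1.19, Arhgef16, the exchange factor ephexin-4 that binds EphA2, at 0.82 and Chn2, the Rac inhibitor β-chimaerin, at 0.61. Each of these 5 calls was lost on leaving out any one of several arrays. Leaving out any array other than wild type 3 also lowered the count over all probes, from 4970 to between 1934 and 3618. Abl2 and Rac1 were lost on leaving out any array other than wild type 3 (limma adjusted p from 0.0582 to 0.175 and from 0.0797 to 0.195). Limk2 was lost without any of the knock-in arrays and without wild type 1 (limma adjusted p from 0.0629 to 0.0935), Chn2 without any array but knock-in 1 and wild type 3 (0.0614 to 0.131) and Arhgef16 without knock-in 2, wild type 1 or wild type 2 (0.0572 to 0.0885), and none of the 5 passed with scan as a random block (limma adjusted p from 0.173 to 0.344).

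Of the genes of ephrin reverse signalling and shedding, 12 of 15 were measured, with 1 higher, 0 lower and a median of -0.17. Of all genes 12.4% were higher and 11.8% lower. In the shared day 2 of the list were higher and 1 lower, where 42.7% of all genes passed. Timp1, an inhibitor of the metalloproteases that can cut ephrins and their receptors, read 2.38, 2.26 and 1.78 on the knock-in arrays, against -2.24, -2.14 and -2.74 on the wild type arrays. It rose by 4.51 (SE 0.24, limma adjusted p = 0.000135; adjusted p = 0.0022 with scan as a random block). Adam10, the protease known to cut ephrin-As, differed by -0.39 (limma adjusted p = 0.232), a value named for its role after it was seen.

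Adherens junction and membrane skeleton genes, whose proteins hold lens cells together and anchor actin at the membrane, were measured for 25 of 27. Of these 2 were higher and 7 lower, with a median of -0.27, beside the same 12.4% and 11.8% of all genes. The shared day also gave 2 higher and 7 lower, where 42.7% of all genes passed. Arvcf, a catenin of the p120 family, read 0.98, 1.20 and 1.16 on the knock-in arrays, against 3.05, 2.94 and 3.82 on the wild type arrays, and fell by 2.15 (SE 0.26, limma adjusted p = 0.00219). Ctnna2, the neural α-catenin, read 2.19, 2.77 and 2.74 on the knock-in arrays, against 4.49, 4.53 and 4.68 on the wild type arrays, and fell by 2.00 (SE 0.21, limma adjusted p = 0.00125). Both genes had their groups far apart. Ctnnd2, δ-catenin, fell by 1.78 (SE 0.31, limma adjusted p = 0.00909) and did not pass with scan as a random block (limma adjusted p = 0.148). Msn, moesin, which links actin to the membrane, rose by 1.73 (SE 0.19, limma adjusted p = 0.00173). Tmod1, tropomodulin, which caps actin filaments in fibre cells, rose by 0.83 (SE 0.15, limma adjusted p = 0.0103), lost without knock-in 2, wild type 1 or wild type 2 (limma adjusted p from 0.0555 to 0.061) and with scan as a random block (limma adjusted p = 0.153). Lens cell markers were read beside these lists. Of 13 fibre markers 0 were higher and 8 lower (median -0.95), and of 10 epithelial markers 1 was higher and 2 lower (median -0.41). In the shared day 12 fibre markers were lower, where 42.7% of all genes passed in either direction. Of all probes that passed in the shared day, 38.3% were higher. The summed fibre marker level was 1075 to 1101 on knock-in and 1349 to 3600 on wild type arrays, and the summed epithelial level was 79.8 to 85.9 on knock-in and 61.5 to 65.3 on wild type arrays, both in multiples of the array's 75th percentile. Pdpn, podoplanin, made the epithelial sum higher: without it the other 9 markers summed to 39.3 to 42.8 on knock-in and 47.7 to 51.2 on wild type arrays. The part of cell composition in these results was not tested.

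**Figure D4:**
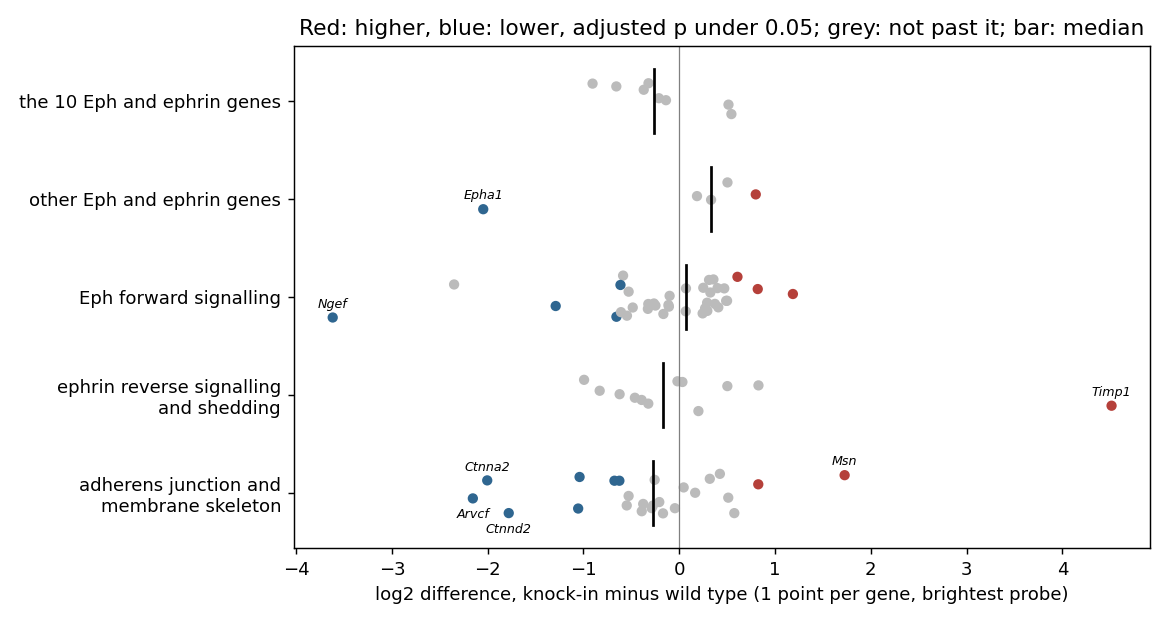
Log2 difference, knock-in minus wild type (x axis), of each measured gene of 5 lists, 1 point per gene from its brightest probe, with black bars at the medians; red and blue points passed an adjusted p of 0.05. The 8 measured genes of the set lie between -0.90 and 0.54 and none is coloured, while Timp1 at 4.51 and Ngef at -3.62 lie farthest out.

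The genes with profiles most like those of Epha2 and Efna5 were found by the root mean square distance between log2 values centred on each gene's mean, over the 6 arrays and 12781 genes, as a description with no test. For Epha2 they were Pgs1, Pars2, Cnbd2 and Nup85, at distances of 0.033 to 0.041, where the median distance was 0.47. For Efna5 they were Prkci, Pigs, Arhgef7 and Tmem59, at 0.042 to 0.052, where the median was 0.40. Within the set, Efnb1 was nearest to both, at 0.16 from Epha2 and 0.20 from Efna5, and Epha2 and Efna5 lay 0.27 apart.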

How the data were processed

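Lens RNA of 3 knock-in and 3 wild type samples was measured on single-colour Agilent arrays, with group and replicate number taken from each title. The deposited intensity values, per the file headers, are spot signals processed by Agilent Feature Extraction 11.0.1.1 (background subtracted within the array) and median spot and background intensities. The submitters' processing notes name version 9.1. Any scaling the authors applied across arrays is not given in the sources here. Headers place the array design on build mm9.

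The log2 signal minus the array's 75th percentile over 43020 non-control spots was used, outlier-flagged spots were dropped, and a probe's spots were averaged. Probes well above background (at least 50% of spots) on all arrays of at least 1 group were kept, 21076 of 39429. Symbols came from RefSeq accessions without versions (assembly GRCm38.p6), which named 27234 probes. A limma model (version 3.58.1, R 4.3.3) was fitted to every kept probe on genotype, leaving 4 residual degrees of freedom, and p-values were adjusted by Benjamini-Hochberg. A gene was counted by its brightest kept probe. The number of arrays limits the precision. The fit was tested on simulated data. The members and lists were chosen with earlier results of these data known. Named were all members, up to 4 genes per list and direction with the smallest p past the threshold, and 4 nearest profiles each for Epha2 and Efna5. A gene from outside it is marked as such, and a gene it names is not reported here. Other settings numbered 20, of which 1 was added after seeing the data. Among them, scan day as a block and the shared scan day amount to the same fit.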

Additional observations from a re-analysis of the deposited data

How the results depend on the processing

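Of 8 measured member genes 0 passed with all arrays, and likewise with quantile normalization, normexp background, no filter on dim probes, probes above background on all arrays, flagged spots kept, 1 value per gene from the brightest probe and scan as a random block. The count was 1 with arrays centred on the median (Efna3), 1 with the mean of a gene's probes (Efnb2, through its dimmer probe), 4 with scan day as a block, 4 within the shared scan day, 0 to 3 on leaving out 1 array, and 8 with array weights, where nearly all weight fell on knock-in 2 and wild type 1. Scan day as a block and the shared scan day amount to the same fit, since wild type 3 was the only array of its day. The count over all probes was 4970 with all arrays. It was 1914 with normexp, 2071 without the filter, 20358 with array weights, 3312 and 3303 with 1 value per gene (brightest probe and mean), 9250 with scan day as a block, 9250 within the shared day, 669 with scan as a random block, and 1934 to 9495 on leaving out 1 array. The calls were 45.7% higher, against 35.8% with arrays centred on the median and 38.3% within the shared day. The direction turned for Efna3 (0.0078) and Ephb2 (0.038) with normexp and for Efnb1 (0.035) with array weights, and for no other member.

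Arrays 1 and 2 of each genotype share a number, which the labels do not explain. The deviations of same-numbered arrays correlated at 0.15 for number 1 and -0.18 for number 2. With the replicate block on those 4 arrays 2 members and 9382 probes passed. Without the block, a fit chosen after seeing the data, the same 4 arrays gave 2 members and 10036 probes. Signal over background limits Epha3, Epha4 and Efna3.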

Other observations

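Markers of other cells that a lens sample can hold were read as lists, by each gene's brightest kept probe and with no test of the lists. Of all genes, 12.4% were higher and 11.8% lower with all arrays, and 42.7% passed in either direction in the shared day. Of 12 leukocyte markers 9 were measured, with 2 higher and 1 lower, and with 2 higher and 5 lower in the shared day. The 2 higher, C1qc and Tyrobp, were kept through the knock-in arrays, with 1 and 0 wild type arrays well above background. Their differences were 4.39 and 4.36. The 1 lower was Itgam, with a difference of -1.65. The summed leukocyte level was 10.8 to 19.8 on knock-in arrays and 13.7 to 43.3 on wild type arrays. Itgam was the brightest of the 9 on every array and so weighs most in this sum. Its log2 values ran from 2.60 to 3.33 in knock-in lenses and from 3.51 to 5.21 in wild type lenses. A sum without Itgam is not given here, so the sum does not describe the other leukocyte markers. Of 8 fibroblast markers 3 were measured, with 2 higher, and their sum was 7.32 to 16.6 on knock-in arrays and 2.59 to 3.42 on wild type arrays. Of 8 iris and ciliary body pigment cell markers 6 were measured, with 0 higher and 2 lower. The 2 lower were Oca2 and Mitf, with differences of -1.81 and -1.51. Dct (kept through the knock-in arrays), Tyrp1, Tyr and Pmel differed by 2.50, 1.29, 0.16 and -0.0023 and did not pass. The median of the list was 0.08. The summed pigment cell level was 2.71 to 3.11 on knock-in arrays and 5.58 to 6.67 on wild type arrays, all sums in multiples of the array's 75th percentile. Oca2 was the brightest of the 6 on the wild type arrays, so it weighs most in the sum there.

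Prph2, a structural protein of photoreceptor outer segments, read -0.14, 0.88 and 5.51 on knock-in arrays 1, 2 and 4, and -2.28, -2.59 and -2.39 on wild type arrays 1, 2 and 3, at the brighter of its 2 probes. The difference between knock-in array 4 and the next highest knock-in array was 4.63.

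Over the whole family, 10 probes were not well above background on any array, and 9 of them had a higher scaled mean in knock-in than in wild type lenses, with differences from -0.18 to 1.25. The values of these probes lay between -5.77 and -2.57 on knock-in arrays and between -6.72 and -4.36 on wild type arrays. The share of all such dim probes that were higher in knock-in lenses is not given here, so the count is not a result about the family. Without the filter on dim probes the median difference over all 39429 probes was 0.26, against -0.075 over the 21076 kept.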
